A study of Mus musculus with 3 samples.

Results

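The 39 genes described here act in G2 and mitosis, the stretch of the cell cycle in which a cell condenses its chromosomes, builds a spindle and divides. They are known mitotic genes, listed by role rather than by a rule on their values, though with earlier results of these data known, and all 39 were found among the 20605 genes of the count table. By role they are 6 entry kinases and cyclins, 5 genes of chromatin and condensation, 6 of the kinetochore and centromere, 3 of the spindle checkpoint, 3 around the anaphase-promoting complex, 3 of the chromosomal passenger complex, 7 of spindle assembly and 6 of cytokinesis. Single-cell RNA was read from mammary tumour cells of 4 FVB mice that carry the C3(1)-Tag transgene, aged 25 to 30 weeks with primary tumours of 20 mm. Cells of every mouse were set in collagen I (as organoids, in the labels' word) or in Matrigel, a gel of basement membrane proteins rich in laminin (as clusters), both in medium with 2.5 nM FGF2. They were taken on day 0 (12 h after plating), day 3 and day 5, and each day was 1 pool of all mice and both gels together with 4T1, an established mouse mammary carcinoma line grown on plastic. The deposited annotation names the first time D1, which is taken here to be day 0 by inference. The transgene, the FGF2 and the freshly isolated tissue were common to all tumour groups. Collagen gels were released with collagenase and Matrigel gels with EDTA on ice, so gel, release and starting fragment cannot be told apart. Day and pool cannot be told apart within a gel, whereas both gels of a day shared a pool.

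The kinase CDK1, bound to cyclin A or B, drives entry into mitosis, and it is switched off again when the anaphase-promoting complex has the cyclins destroyed. Many of its partners are made only in G2 and mitosis, because a complex of B-MYB, FOXM1 and the MuvB proteins turns on their promoters through a short element known as CHR, often beside CCAAT boxes bound by NF-Y; in resting cells MuvB, p130 and E2F4 keep the same promoters off. The large T antigen of the C3(1)-Tag transgene binds and blocks the retinoblastoma family and p53, which hold this program down in normal mammary epithelium.

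The promoters of these genes are shown first because those elements are more common among the members than among all genes, although not every member holds them. Sequences of 300 bases, from 250 before to 50 after the gene's start (RefSeq, GRCm38.p6), were matched for 34 of the 39 members; Tpx2, Smc4, Ccna2, Kif20a and Aurkb had no entry. Each window was searched on both strands for the CHR letters TTTGAA, read on the other strand as TTCAAA, the variant TTCGAA and the CCAAT box, on the other strand read as ATTGG. None of these motifs contains another, so a base can count for more than one only where matches run into each other. The printed stretch runs from 100 bases before to 30 after the start, 5′ to 3′ on the gene's strand, and capitals mark every match. In Anln the last capitals begin a TTTGAA that runs past the printed end. The 9 genes were picked with their values seen, to show each kind of promoter, and are not a sample of the members. The first 6 hold TTTGAA with CCAAT and were higher on day 3 than on day 0 in Matrigel, and Anln and Kif20b (TTTGAA without CCAAT) and Nuf2 (neither) did not pass that test. Other members break this pattern. Cdk1, Top2a and Ttk hold both motifs and did not pass it, and Cenpe passed without a TTTGAA. Birc5 passed with none of the motifs (edgeR, log2 fold change 0.80, adjusted p = 0.0159).
Ccnb2, chr9:70421525-70421654, minus strand: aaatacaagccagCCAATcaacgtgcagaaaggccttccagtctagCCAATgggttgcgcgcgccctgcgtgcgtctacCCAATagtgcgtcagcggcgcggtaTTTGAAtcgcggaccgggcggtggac
Ube2c, chr2:164769829-164769958, plus strand: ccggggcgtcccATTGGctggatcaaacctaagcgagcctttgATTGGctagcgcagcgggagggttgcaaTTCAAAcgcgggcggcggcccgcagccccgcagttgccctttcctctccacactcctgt
Kif22, chr7:127042391-127042520, minus strand: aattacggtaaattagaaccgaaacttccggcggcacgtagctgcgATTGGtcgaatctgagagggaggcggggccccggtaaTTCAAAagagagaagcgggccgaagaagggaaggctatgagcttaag
Cdc20, chr4:118437314-118437443, minus strand: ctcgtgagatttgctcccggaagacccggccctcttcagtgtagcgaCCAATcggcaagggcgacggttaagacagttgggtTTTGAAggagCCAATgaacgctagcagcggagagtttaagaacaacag
Cenpa, chr5:30666786-30666915, plus strand: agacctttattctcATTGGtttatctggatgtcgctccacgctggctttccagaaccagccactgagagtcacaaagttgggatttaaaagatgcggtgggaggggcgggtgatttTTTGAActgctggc
Hmmr, chr11:40733408-40733537, minus strand: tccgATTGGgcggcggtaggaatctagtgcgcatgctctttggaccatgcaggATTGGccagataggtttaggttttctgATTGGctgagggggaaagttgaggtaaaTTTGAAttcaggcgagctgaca
Anln, chr9:22389177-22389306, minus strand: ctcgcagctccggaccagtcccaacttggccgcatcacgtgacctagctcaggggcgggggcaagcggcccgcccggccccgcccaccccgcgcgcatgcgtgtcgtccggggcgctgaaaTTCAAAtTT
Kif20b, chr19:34922258-34922387, plus strand: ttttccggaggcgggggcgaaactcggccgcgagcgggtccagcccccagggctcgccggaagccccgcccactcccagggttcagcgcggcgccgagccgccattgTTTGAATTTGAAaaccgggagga
Nuf2, chr1:169531435-169531564, minus strand: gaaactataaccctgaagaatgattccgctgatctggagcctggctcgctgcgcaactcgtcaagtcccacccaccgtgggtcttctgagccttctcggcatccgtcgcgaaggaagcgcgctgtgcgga
In Ccnb2 the CCAAT boxes began at -87, -54 and -21 and a TTTGAA at 5, counted from the start as 1, with a further TTTGAA outside the printed stretch at -167. Of the 34 members 27 (79.4%) held TTTGAA, against 13.9% of the 10039 tested genes with a promoter entry and 20.2% of all 27025 genes of the table. CCAAT was found in 26 (76.5%), against 42.9% and 41.1%, and both motifs together in 23 (67.6%), against 5.8% and 8.0%. The variant TTCGAA was found in 3 (8.8%), against 2.5% of the tested genes. A list of 48 other G2 and mitosis genes held TTTGAA in 22 of 37 matched promoters (59.5%), and 30 S phase genes in 3 of 25 (12.0%). These are counts of letters in a window, given without a test, and they show neither binding nor use.

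The table held 7620 cells, 7307 of them labelled with a mouse. Clusters with macrophage, fibroblast or T and NK cell markers (337 cells) were left out, and the other 6970 cells were summed into 21 sums of 1 mouse, gel and day, of 38 to 1148 cells and 1831436 to 46657709 unique molecules (UMIs). Mouse 4 had no cells on day 5 and mouse 1 only 13 Matrigel cells, so day 5 had 3 collagen and 2 Matrigel sums. All 9 epithelial markers examined were present in all groups of sums, with summed levels of 4421 to 8897 CPM (a gene's UMIs scaled to a fixed library total), and the 10 macrophage markers summed to 45.1 to 330.5 CPM and the 7 fibroblast markers to 2.20 to 30.1 CPM. The highest macrophage value was in Matrigel on day 5, where only 5 of the 10 markers had a UMI. The 4 neutrophil markers found reached more, with summed levels of 15.1 to 148.3 CPM in Matrigel on day 0 and 4.5 to 638.2 in Matrigel on day 3. In the collagen sums of all days they reached 16.1 to 294.3 CPM. Not all 4 took part, as Csf3r had no UMI in Matrigel on day 3 or in collagen on days 0 and 3. The part of these markers in the results was not tested. Of 7609 cell barcodes 11 occurred in more than 1 pool. Median UMIs per cell rose with the day, from 4330 to 24921 on day 0 to 52656 to 60985 on day 5, so shares of cells were compared only after each cell was thinned to 2000 UMIs; 255 shallower cells were left out. A further 57 mouse-labelled cells lay in the cluster of 4T1 cells, and 725 lay in clusters of few UMIs, 382 of them from mouse 4 on day 0.

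Members were found together in the same cells. Of 6715 thinned cells, 2910 (43.34%) held 4 or more members. Plk1, the kinase that drives spindle and cytokinesis steps, was detected in 9.30% of cells with 4 or more other members and in 0.42% of the rest. For Hmmr, a spindle-pole microtubule protein, the shares were 15.8% and 0.94%, and for Nusap1, which bundles spindle microtubules, 15.7% and 1.49%. Smc4, a condensin subunit, was the least restricted, at 56.9% and 28.49%, and Anln, the contractile-ring scaffold, was at 24.7% and 10.02%. Macrophage-like cells of the day 0 pool, with a median of 13582 UMIs, gave a background: none of 171 thinned cells had 4 or more members (exact 95% upper limit 2.13%), and their members summed to 179.3 CPM. Macrophage-like cells of the day 3 pool were higher, with 1 of 28 at 4 or more (3.57%) and members at 904.0 CPM. The 3 macrophage-like cells of day 5 were at 445.4 CPM. In fibroblast-like cells 3.70% had 4 or more (3 of 81). Intervals cover counting error only.

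On day 0 the share of cells with 4 or more members was 40.18, 32.24, 56.52 and 35.56% in collagen and 34.32, 33.96, 46.58 and 26.53% in Matrigel (mice 1 to 4). Mouse 3 was highest in both gels, and the ranges overlapped (means 41.1 ± 10.8 and 35.3 ± 8.31%, SD, n = 4). On day 3 it was 44.99, 43.49, 48.26 and 40.87% in collagen and 61.70, 34.01, 58.65 and 51.08% in Matrigel. Matrigel thus held both the highest and the lowest mouse of that day, the lowest being mouse 2. On day 5 collagen was at 43.56, 38.95 and 56.63% (mice 1 to 3) and Matrigel at 43.14 and 70.27% (mice 2 and 3). From day 0 to day 3 the Matrigel mean was 16.02 points higher, with overlapping ranges. The share was higher in mice 1, 3 and 4 and nearly level in mouse 2 (33.96 and 34.01%). The collagen mean differed by 3.28 points, higher in 3 of 4 mice. No test was run on these shares. Thinned to 5000 UMIs instead, the Matrigel difference was 3.27 points, with mice 1 and 4 higher on day 3 and mice 2 and 3 lower. The collagen difference was -5.46 at that depth. The size of the Matrigel value and the direction of the collagen value thus differed between these settings. Thinning to 5000 UMIs also kept fewer cells, unevenly. In collagen it kept 106 instead of 180 cells of mouse 4 on day 0 and 1139 instead of 1145 of mouse 2 on day 3. The cut of 4 members stayed the same. Depth, the cells kept and the cut were not separated. The 4T1 cells of the 3 pools were at 65.31, 24.74 and 68.42% (98, 194 and 19 cells), the lowest value falling in the day 3 pool.

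**Figure D1:**
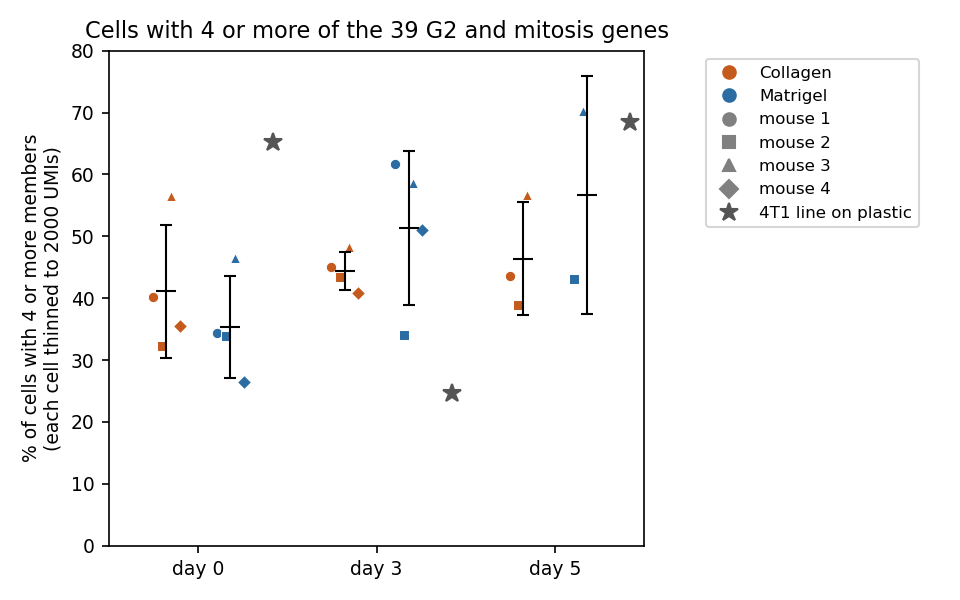
Share of cells (%) with UMIs of 4 or more of the 39 G2 and mitosis genes, by day, each cell thinned to 2000 UMIs. Points are mice, bars the mean ± SD, and stars the 4T1 cells of the same pool (1 value a pool); the Matrigel values lie between 26.53 and 46.58% on day 0 and between 34.01 and 61.70% on day 3.

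Levels of single members were compared in the sums, as CPM after TMM scaling, with edgeR's quasi-likelihood test and Benjamini-Hochberg adjustment over 13184 genes; "called" means an adjusted p under 0.05. The animals recur across the groups, except those missing on day 5. A fit of the same test with the mouse as a block is therefore given beside the first where it changes a count or call. In a sum, fewer cells in mitosis and less of a transcript per cell cannot be told apart. On day 0 Ccnb2 and Ckap2 were called higher in collagen, and most other members had higher values there than in Matrigel without passing the test: 36 of 39 members had a positive log2 fold change for collagen over Matrigel (median 0.40; all genes 0.01). Of the 39, 2 were called, both higher in collagen (5.1% of members; 4.15% of all genes were called higher), and with the mouse as a block 15 were higher and none lower (38.5%; 12.5% of all genes higher). For 5 members the collagen and Matrigel mice did not overlap (14.0% of all genes).

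Ccnb2 encodes cyclin B2, a partner of CDK1 (ENSMUSG00000032218, chromosome 9, 70407692 to 70421547, minus strand, GRCm38). Its level was 48.7, 49.7, 48.7 and 73.5 CPM in collagen and 12.8, 16.9, 21.3 and 26.5 CPM in Matrigel on day 0 (mice 1 to 4). Every collagen mouse was above every Matrigel mouse, and in collagen mouse 4 stood above the other 3. Collagen averaged 55.1 ± 12.2 CPM (SD, n = 4) and Matrigel 19.4 ± 5.92 CPM (SD, n = 4) (edgeR, log2 fold change 1.51, SE 0.33, adjusted p = 0.011). Ckap2, a microtubule protein of the spindle, was the other called gene, at 60.3, 50.8, 68.9 and 73.1 against 35.3, 36.7, 48.1 and 41.1 CPM, again without overlap (edgeR, log2 fold change 0.65, SE 0.18, adjusted p = 0.0378). Without mouse 1 or without mouse 2 neither gene was called, and without mouse 3 or mouse 4 the called members numbered 3 and 1.

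Plk1 was at 23.9, 25.6, 26.7 and 25.5 CPM in collagen and 10.1, 13.1, 23.2 and 7.96 CPM in Matrigel. The 4 collagen values lay close together, and mouse 3 came nearest to them in Matrigel. It was called only with the mouse block (edgeR, log2 fold change 0.95, SE 0.27, adjusted p = 0.0177; without the block adjusted p = 0.127). Ube2c, the ubiquitin-conjugating enzyme that works with the anaphase-promoting complex, was at 184, 257, 329 and 211 against 73.6, 96.1, 239.8 and 69.5 CPM, higher in collagen within each mouse although the ranges overlapped (block, edgeR, log2 fold change 1.20, SE 0.28, adjusted p = 0.00549; without it adjusted p = 0.204). Kif22, the kinesin that pushes chromosomes towards the equator, was at 29.2, 26.2, 26.7 and 19.3 against 13.0, 12.8, 21.1 and 8.09 CPM. The ranges overlapped through mouse 4 in collagen and mouse 3 in Matrigel, each mouse was higher in collagen, and with the block the gene was called (edgeR, log2 fold change 0.91, SE 0.22, adjusted p = 0.00636), as it was by DESeq2 without it (adjusted p = 0.0477). Ect2, which activates RhoA for the cleavage furrow, had no overlap at 49.4, 42.8, 41.6 and 42.4 against 26.5, 33.7, 41.2 and 33.9 CPM (block, edgeR, log2 fold change 0.41, SE 0.12, adjusted p = 0.0182).

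Further members that passed with the block, and neither without it nor by DESeq2, were Cdk1 itself (log2 fold change 0.44, adjusted p = 0.0403 by edgeR), the proliferation antigen Mki67 (0.55), the centromeric histone Cenpa (0.62), the kinetochore motor Cenpe (0.77), the checkpoint genes Bub1 (0.43) and Bub1b (0.86), Cdca3, a trigger of mitotic entry (0.78), Tpx2, which activates Aurora A (0.45), and Nusap1 (0.90). The chromosomal passenger genes had values of 0.07 to 0.30 without the block, and none of the 3 was called in either fit: Aurkb, the complex's kinase, 0.30, Birc5, survivin, 0.22 and Cdca8, borealin, 0.07. Anln (-0.11), the central spindle kinesin Kif23 (-0.15) and the chromosome arm kinesin Kif4 (-0.11) were the 3 members with a negative value. Anln was at 78.7, 94.1, 87.1 and 125 against 93.6, 108, 86.4 and 127 CPM, with overlapping ranges.

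The mice were not alike on day 0. Within mouse 4, 38 of 39 members were higher in collagen (median log2 ratio 0.82), within mouse 1 36 (0.49) and within mouse 2 35 (0.41). In mouse 3 25 of 39 were higher and the median was 0.03. Over all genes the medians within a mouse were -0.01 to 0.00. Mouse 3 had the highest Matrigel levels of that day for most entry genes, as for Cdk1 at 133, 110.2, 209 and 84.9 CPM and cyclin B1 (Ccnb1) at 45.2, 59.6, 120.4 and 35.1 CPM. Median UMIs per cell were 4330 to 20203 in collagen and 8503 to 24921 in Matrigel, lowest in mouse 4 in both gels. Without the clusters of few UMIs, and without the 57 cells in the 4T1 cluster, the number of called members was 2 each time.

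**Figure D2:**
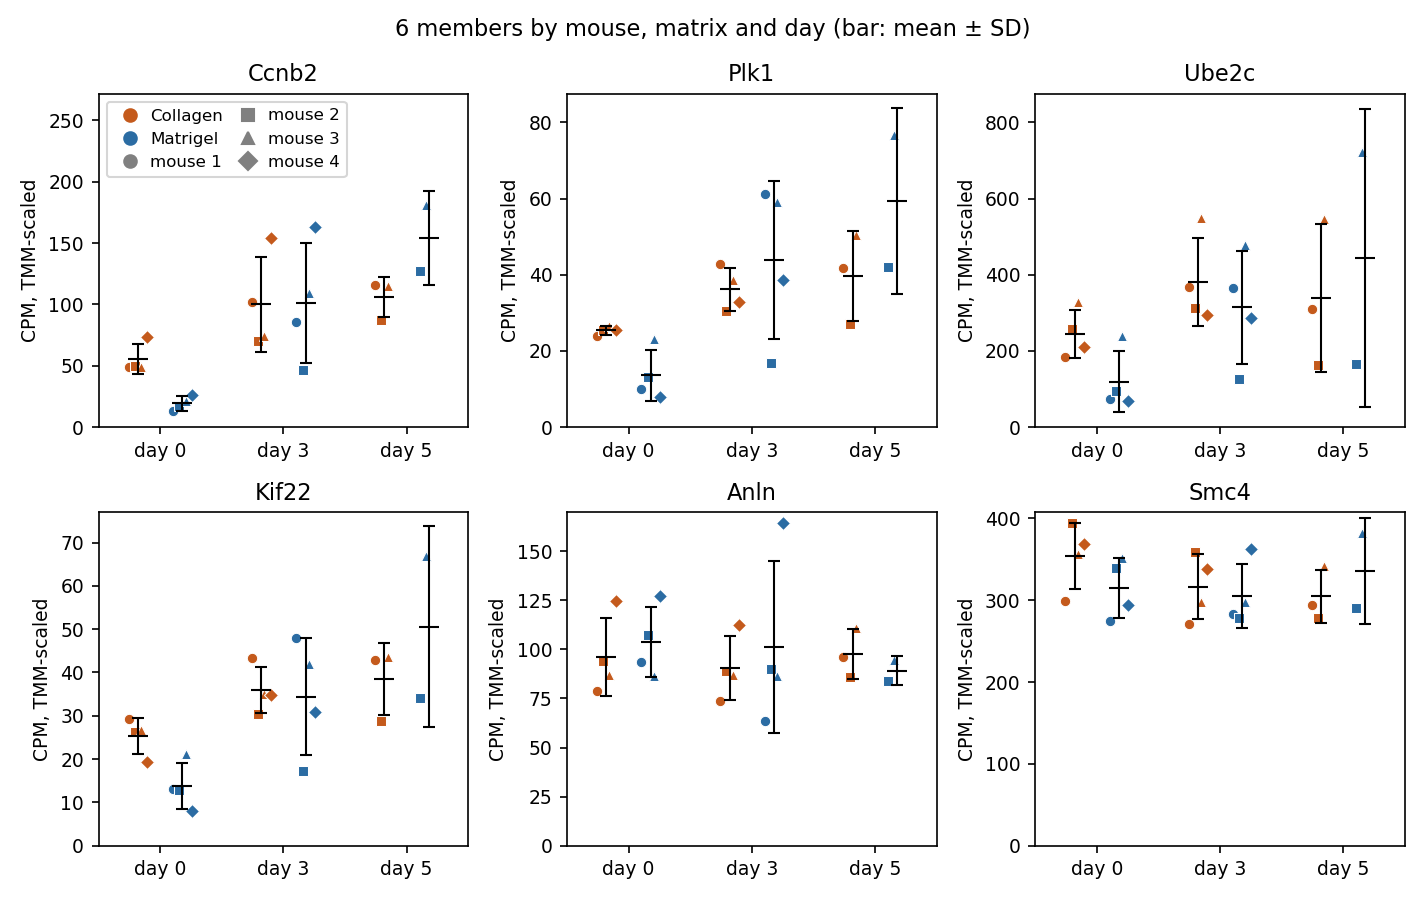
Levels (CPM, TMM-scaled) of Ccnb2, Plk1, Ube2c, Kif22, Anln and Smc4 by day, with mice as points and the mean ± SD as bars. Ccnb2 in Matrigel ran from 12.8 to 26.5 CPM on day 0 and from 46.6 to 163 CPM on day 3, while Anln and Smc4 overlapped between gels and days.

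Cells already carrying 4 or more other members were compared at equal depth, a comparison that the number of such cells does not set. Most members were detected in a lower mean share of them in Matrigel on day 0. Ccnb2, Plk1 and Kif2c are examples, lower in each mouse or without overlap. Ccnb2 was detected in 13.5, 8.62, 8.79 and 22.0% of those cells in collagen and in 0.87, 7.34, 5.68 and 13.7% in Matrigel (mice 1 to 4), lower in Matrigel within each mouse. Plk1 was detected in 9.02, 5.08, 9.89 and 6.25% and 1.72, 4.59, 4.52 and 1.45%, and no Matrigel mouse reached the lowest collagen mouse. Kif2c, the centromeric kinesin that corrects faulty attachments, was detected in 12.8, 10.3, 7.78 and 6.25% and 3.51, 5.50, 2.27 and 2.90%, also without overlap, although its level was called in neither fit. Cdc20 averaged 26.02 ± 1.25% in collagen and 15.94 ± 2.4% in Matrigel (SD, n = 4), without overlap, and Ndc80 did not overlap either. Ube2c was lower in Matrigel within each mouse. Smc4 was detected in 55.9, 66.0, 53.0 and 68.4% and 55.5, 54.8, 55.6 and 58.7%, and Kif23 averaged 14.96 ± 5.76% and 16.4 ± 2.70%. The mean share was higher in Matrigel only for Kif23, Anln, Kif4, Nuf2, Aurkb, Kif11 and Ckap2l. Cells with 4 or more members were not equally rich in both gels on day 0. In collagen they carried 56.9, 65.6, 50.4 and 76.0 member UMIs per 10000 (mice 1 to 4). In Matrigel they carried 38.0, 42.9, 51.5 and 46.9. A lower share of a single gene was not separated from this difference. The detection shares are descriptions without a test, and a share near that of 1 UMI in 2000 carries little about level.

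On day 3 the gels were close. Of 39 members none was called in collagen against Matrigel (0.205% of all genes were called), none with the mouse as a block (4.37% of all genes), none with DESeq2 and none at an unadjusted p under 0.05 in edgeR. The log2 fold changes ran from -0.36 to 0.28 with a median of -0.10 (all genes -0.01), 10 of 39 were positive, and for no member did the gels fail to overlap (4.67% of all genes). Ccnb2 was at 102, 70.2, 74.0 and 154 CPM in collagen and 85.3, 46.6, 109.6 and 163 CPM in Matrigel, and in both gels mouse 4 was highest. The mice went opposite ways: in mouse 2 37 of 39 members were higher in collagen (median log2 ratio 0.53), whereas in mice 1, 3 and 4 9, 8 and 5 were (medians -0.29, -0.33 and -0.22). Plk1 shows this, at 42.8, 30.4, 38.7 and 32.8 CPM in collagen and 61.3, 16.8, 59.1 and 38.5 CPM in Matrigel, where mouse 2 stood lowest. Ube2c was at 369, 314, 549 and 295 and 366, 126, 478 and 287 CPM, and mouse 2 was again lowest in Matrigel.

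On day 5 most members had higher values in Matrigel, and none was called. Of 39 members none was called by edgeR (0.455% of all genes), none with the block (6.28% of all genes) and none with DESeq2; 3 had an unadjusted p under 0.05. The median log2 fold change was -0.43 (all genes 0.00) and 3 of 39 were positive. Cdc20, the activator of the anaphase-promoting complex, was at 129, 99.3 and 185 CPM in collagen (mice 1 to 3) and 176 and 214 CPM in Matrigel (mice 2 and 3). Within mouse 2 11 members and within mouse 3 3 members were higher in collagen (medians -0.28 and -0.48). Mouse 3 held the highest Matrigel level of that day for both Cdc20 and Top2a, the topoisomerase that untangles sister chromatids, at 175 and 431 CPM. The Matrigel sums of that day rest on 51 and 38 cells.

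**Figure D3:**
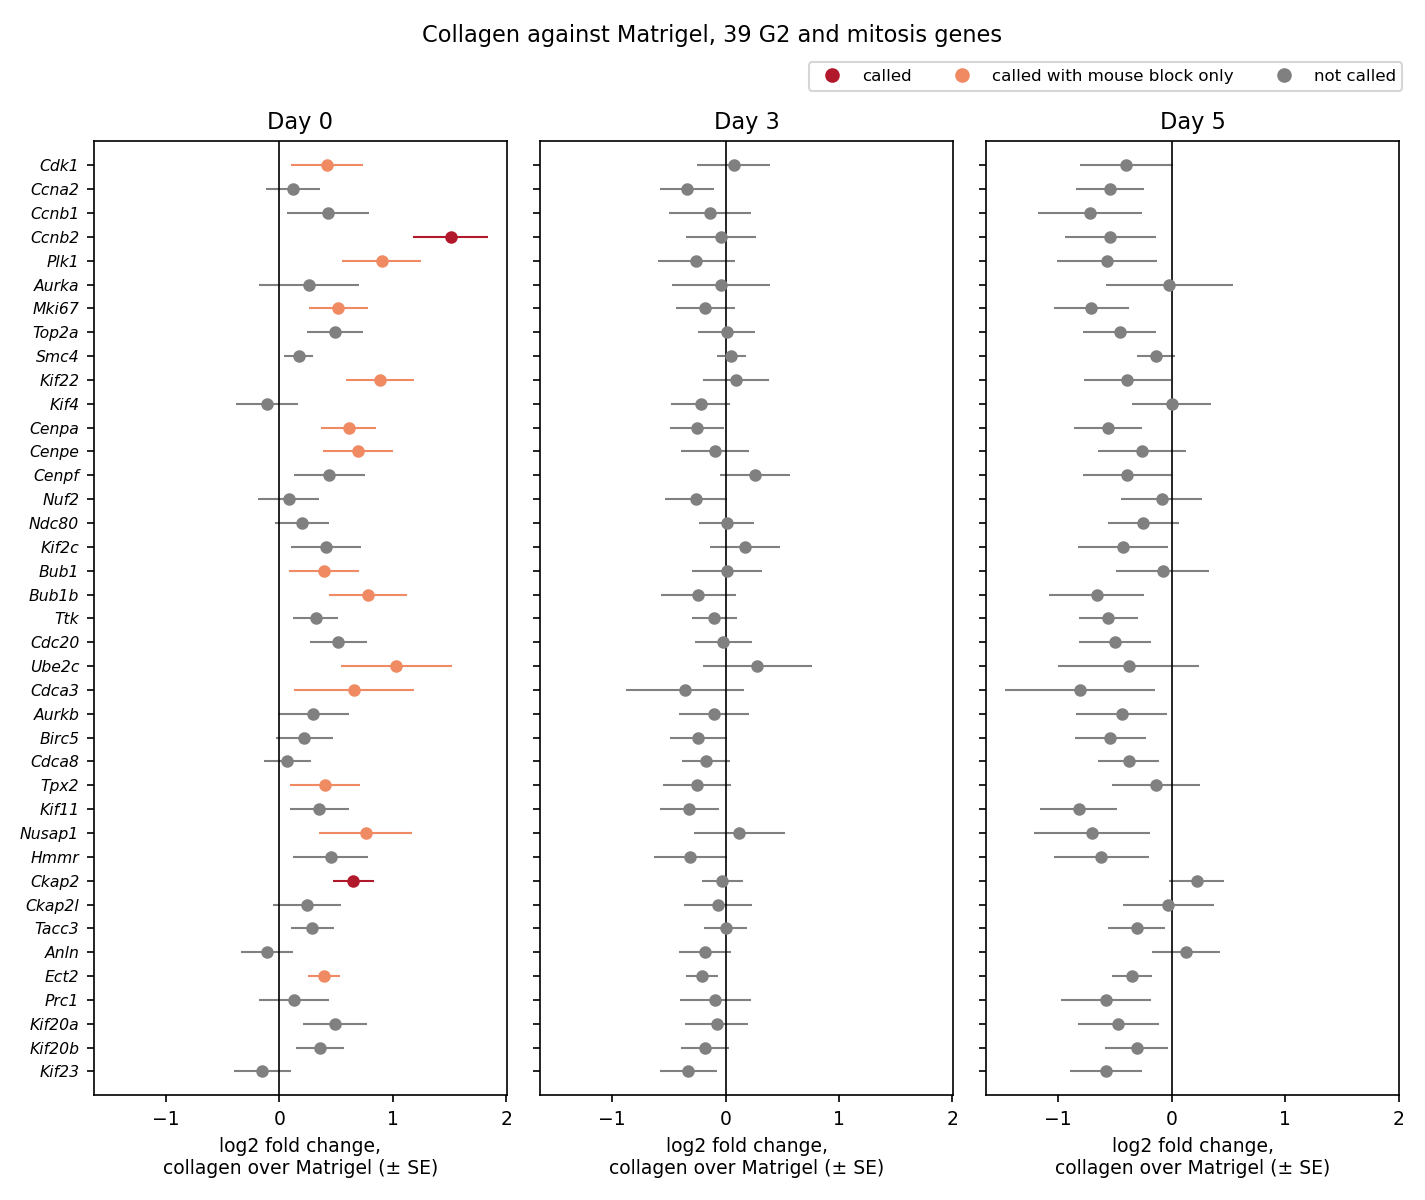
Log2 fold change (± SE) of collagen over Matrigel for the 39 members on each day, in order of role from entry kinases to cytokinesis. Red members were called, orange ones only with the mouse as a block; on day 0 36 of 39 lie right of 0, on day 3 10 and on day 5 3.

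In Matrigel 15 of the 39 members rose from day 0 to day 3, among them genes of each role, and none fell (38.5%, against 19.4% of all genes called higher). With the block 25 were higher and none lower (64.1%, against 26.7% of all genes called higher). Counted in either direction, the share of all genes called was slightly above that of the members without the block. With the block it was below that of the members, and both values are given with the other lists below. The median log2 fold change was 0.56 (all genes -0.01), 35 were positive and 18 were higher in each of the 4 mice. Called members were 2 of 6 entry genes, 2 of 5 of chromatin, 2 of 6 of the kinetochore, 1 of 3 of the checkpoint, 2 of 3 around the anaphase-promoting complex, 2 of 3 of the passenger complex, 3 of 7 of spindle assembly and 1 of 6 of cytokinesis. Without mouse 1 the count was 6 and without mouse 4 it was 7, while without mouse 2 or mouse 3 it was 16 and 18. These sums share their day 0 Matrigel values with the day 0 gel comparison above, and the 2 results are not independent.

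Ccnb2 went from 12.8, 16.9, 21.3 and 26.5 to 85.3, 46.6, 109.6 and 163 CPM, each mouse rising and the days not overlapping (edgeR, log2 fold change 2.39, SE 0.33, adjusted p = 2.09e-05). Plk1 went from 10.1, 13.1, 23.2 and 7.96 to 61.3, 16.8, 59.1 and 38.5 CPM (edgeR, log2 fold change 1.67, SE 0.35, adjusted p = 0.0011). It was higher in every mouse, by least in mouse 2, whose day 3 level lay below the day 0 level of mouse 3. Aurka, the kinase that matures the spindle poles, was at 17.4, 18.8, 49.4 and 14.2 and 53.7, 17.5, 63.5 and 31.7 CPM and was called only with the block (log2 fold change 0.74, SE 0.22, adjusted p = 0.00819, edgeR). Cyclin A2 (Ccna2) was at 96.8 ± 36.6 CPM (SD, n = 4) and 101 ± 33.6 CPM (SD, n = 4) and was not called in either fit (0.06). Cdk1 and Ccnb1 passed with the block only (0.44 and 0.58).

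Among chromatin genes Kif22 went from 13.0, 12.8, 21.1 and 8.09 to 47.9, 17.1, 41.9 and 30.8 CPM (edgeR, log2 fold change 1.30, SE 0.30, adjusted p = 0.00244), and Mki67 from 67.0, 85.2, 119 and 65.2 to 161, 95.8, 177 and 181 CPM (edgeR, log2 fold change 0.87, SE 0.26, adjusted p = 0.0131). Both were higher on day 3 in each mouse, with overlapping ranges because of mouse 2. Top2a (0.18), Kif4 (0.32) and Smc4 (-0.04) were not called in either fit; Smc4 was at 275, 339.8, 351 and 294 and 283, 278, 298 and 362 CPM. At the centromere Cenpa went from 61.8, 71.4, 112 and 68.9 to 199.7, 98.5, 191 and 228 CPM (edgeR, log2 fold change 1.19, SE 0.24, adjusted p = 0.000752), again with mouse 2 lowest on day 3. Cenpe passed as well (0.98). The large kinetochore protein Cenpf (0.37), Kif2c (0.43) and the microtubule-binding pair Ndc80 (0.06) and Nuf2 (-0.04) did not.

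Of the checkpoint genes, which hold anaphase until chromosomes are attached, Bub1b passed (0.91, 12.2 ± 5.79 CPM (SD, n = 4) to 23.7 ± 11.6 CPM (SD, n = 4)), Bub1 did not (0.30), and the kinase Ttk had a negative value (-0.22, 17.0, 15.6, 20.1 and 18.8 and 14.6, 10.8, 13.3 and 21.9 CPM). Ube2c went from 73.6, 96.1, 239.8 and 69.5 to 366, 126, 478 and 287 CPM (edgeR, log2 fold change 1.39, SE 0.49, adjusted p = 0.0314), and Cdc20 from 49.8, 72.3, 91.4 and 55.6 to 142, 56.9, 144 and 109 CPM (edgeR, log2 fold change 0.74, SE 0.25, adjusted p = 0.0242). Cdc20 was higher on day 3 in 3 mice and lower in mouse 2. Cdca3 passed with the block (1.36) and by DESeq2 (adjusted p = 0.0252). Birc5 (0.80, 140.4 ± 40.9 CPM (SD, n = 4) to 245 ± 83.2 CPM (SD, n = 4)) and Cdca8 (0.61) rose, and their partner kinase Aurkb passed with the block only (0.48). Cdca8 was higher on day 3 in 3 mice and lower in mouse 2 (101.6 on day 0 and 90.4 CPM on day 3).

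For the spindle, Hmmr went from 21.0, 28.2, 46.9 and 14.7 to 85.8, 35.1, 111 and 54.7 CPM (edgeR, log2 fold change 1.36, SE 0.33, adjusted p = 0.00345), higher in every mouse. Tpx2 (0.87) and Ckap2 (0.72) rose as well, the latter without overlap between days. Nusap1 (0.73), Ckap2l, a spindle-pole protein (0.42), and Tacc3, which cross-links spindle fibres (0.42), passed with the block. The bipolar spindle motor Kif11 did not (0.07). Of the cytokinesis genes Ect2 rose (log2 fold change 0.56, SE 0.14, adjusted p = 0.00366, edgeR). Prc1, the bundler of the central spindle (0.53), and the kinesin Kif20a (0.56) passed with the block, while Anln (-0.02), Kif20b (0.13) and Kif23 (0.39) did not. For 2 members, Ccnb2 and Ckap2, the mice of day 3 and day 0 did not overlap (30.4% of all genes).

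The mice differed in this change too. In mouse 4 all 39 members were higher on day 3 (median log2 ratio 1.08), in mouse 1 37 (0.78), in mouse 3 30 (0.31) and in mouse 2 18 (-0.08; all genes -0.07 to 0.00 in the 4 mice). Median UMIs per cell rose between the same pools, from 8503 to 24921 to 35725 to 49470; their part in the result was not tested. Without the clusters of few UMIs, and without the cells of the 4T1 cluster, the number of called members was 15 each time. Within cells already carrying 4 or more other members, Ccnb2 was detected in 6.89 ± 5.29% on day 0 and 21.7 ± 8.25% on day 3 (SD, n = 4), and Plk1 in 3.07 ± 1.72% and 12.8 ± 4.69%. Anln was detected in 26.6 ± 9.76% and 27.4 ± 8.98% and Smc4 in 56.1 ± 1.72% and 58.2 ± 10.8%. Of the 14 called members with a promoter entry, 12 held TTTGAA and CCAAT together, and of the 20 other members 11 did; no test was made of this difference.

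In collagen few members passed the test between the same days. Of 39, 1 was called from day 0 to day 3 (2.6%; 19.6% of all genes), and with the block 2 (37.7% of all genes). The median log2 fold change was 0.13 (all genes -0.02), 26 were positive, and the mice's medians were 0.05 to 0.22. The called gene was Ttk, which went from 20.2, 21.9, 24.2 and 23.1 to 15.2, 13.8, 13.7 and 15.1 CPM, lower in each mouse and without overlap (edgeR, log2 fold change -0.63, SE 0.20, adjusted p = 0.0324). Ccnb2 was called higher with the block and by DESeq2, at 48.7, 49.7, 48.7 and 73.5 and 102, 70.2, 74.0 and 154 CPM (edgeR, log2 fold change 0.81, SE 0.18, adjusted p = 0.00182; without it adjusted p = 0.0673, by DESeq2 0.0393). For 8 members the days did not overlap (23.2% of all genes), among them Plk1 at 23.9, 25.6, 26.7 and 25.5 and 42.8, 30.4, 38.7 and 32.8 CPM and Hmmr at 33.3, 39.4, 39.2 and 39.3 and 55.1, 57.3, 66.2 and 49.9 CPM, neither of them called (0.51 and 0.60). Kif11 went the other way in value, from 36.3, 37.5, 34.6 and 49.7 to 24.8, 29.4, 25.3 and 24.5 CPM (edgeR, -0.60, adjusted p = 0.122). The Ttk call was lost without mouse 1, 2 or 3 and without the cells of the 4T1 cluster (log2 fold change -0.51).

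**Figure D4:**
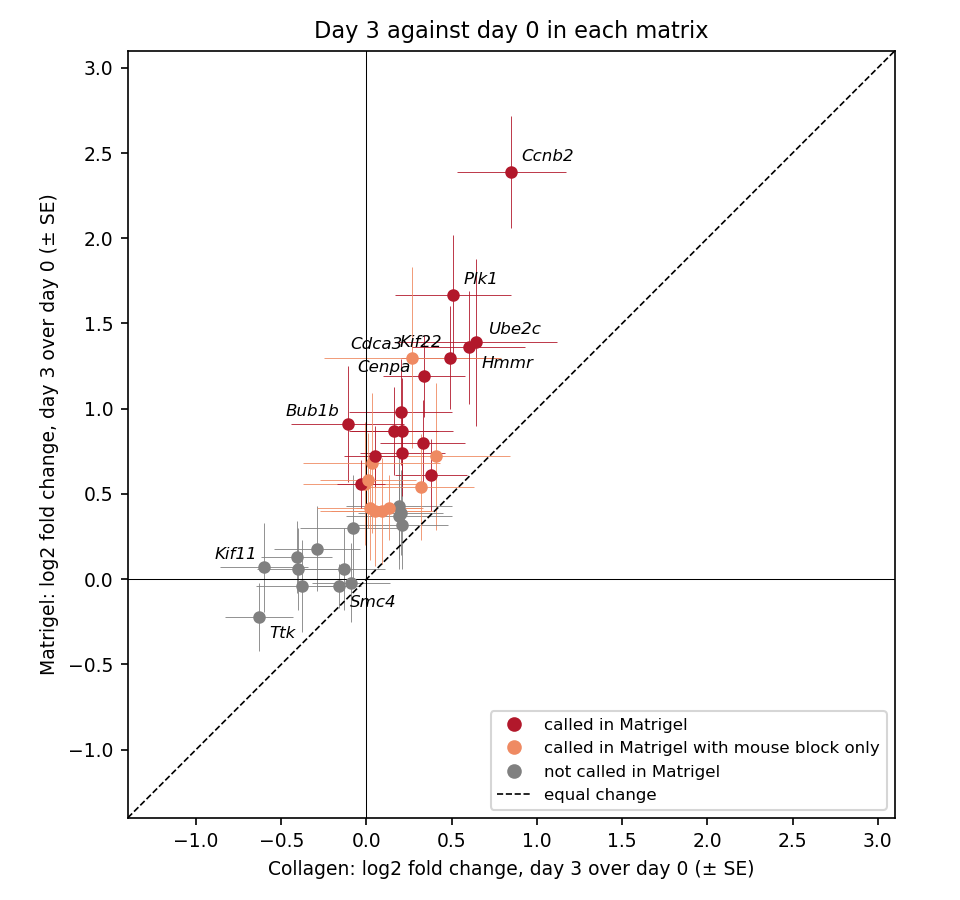
Log2 fold change (± SE) of day 3 over day 0 in collagen (x) and in Matrigel (y) for the 39 members, with the line of equal change. Ccnb2 lies at 0.85 in collagen and 2.39 in Matrigel, Plk1 at 0.51 and 1.67, and Ttk at -0.63 and -0.22.

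From day 3 to day 5 few members passed the test. In Matrigel 1 of 39 members was called higher and none lower (2.6%; 1.46% of all genes higher), and with the block 6 higher and none lower (15.4%; 5.86% of all genes). The called gene was Ttk, at 14.6, 10.8, 13.3 and 21.9 CPM in mice 1 to 4 on day 3 and 21.2 and 39.03 CPM in mice 2 and 3 on day 5 (edgeR, log2 fold change 0.95, SE 0.25, adjusted p = 0.0472). It was lost without mouse 1, 2 or 3. With the block Ccnb2 (0.93), Cdc20 (0.82), Nusap1 (0.94), Ect2 (0.48) and Kif20a (0.89) passed too. In both mice present on both days most members were higher on day 5, 35 of 39 in mouse 2 and 37 in mouse 3 (medians 0.55 and 0.49). In collagen none was called by edgeR (1.15% of all genes) or by DESeq2, with 3 at an unadjusted p under 0.05, and with the block 1 was (10.5% of all genes). That gene was again Ttk, at 15.2, 13.8, 13.7 and 15.1 and 21.0, 16.2 and 23.3 CPM (edgeR, log2 fold change 0.52, SE 0.16, adjusted p = 0.0438).

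**Figure D5:**
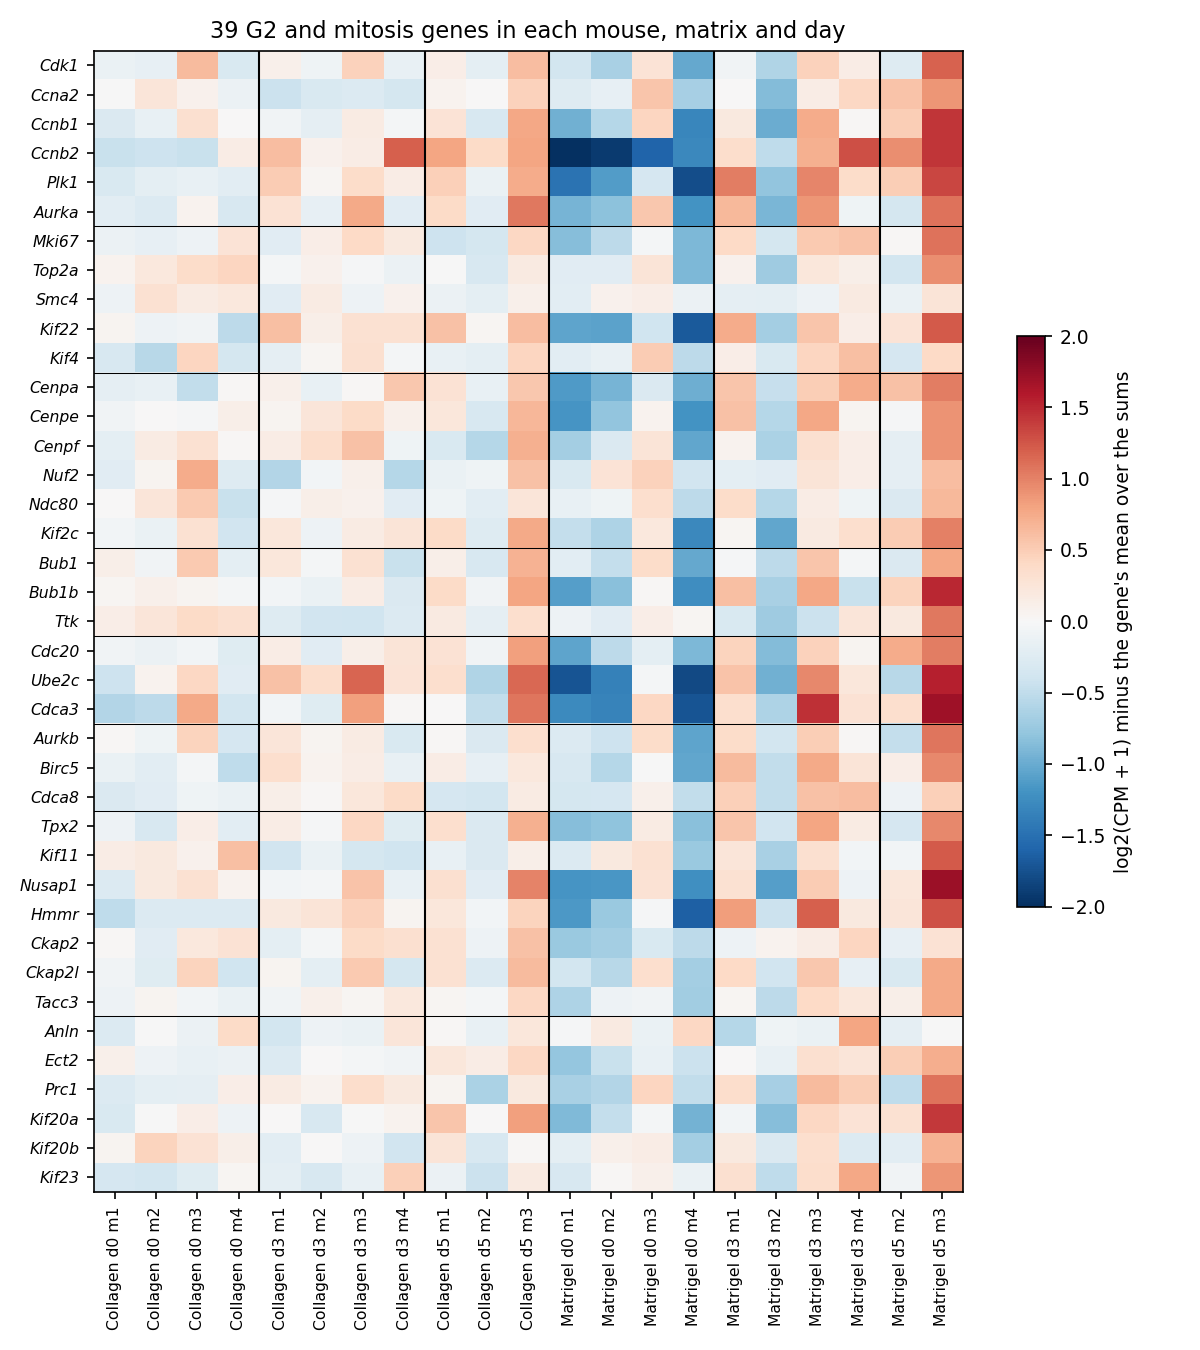
Each member (rows, lines between roles) in each of the 21 sums (columns: gel, day d and mouse m), as log2(CPM + 1) minus the gene's mean over the sums. The Matrigel day 0 columns of mice 1, 2 and 4 are the bluest for Plk1 and Ube2c and all 4 are for Ccnb2, and the Matrigel day 5 column of mouse 3 is red for most members.

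Whether the gel difference itself changed was tested as the later difference minus that of day 0. To day 3 all 39 members had a negative value (median -0.47, range -1.54 to -0.07; all genes -0.01), so the value of Matrigel relative to collagen was higher than on day 0 for each. None was called by edgeR (0.0303% of all genes were called lower) or DESeq2, 6 had an unadjusted p under 0.05, and with the block 4 were called lower and none higher (10.3%; 3.13% of all genes lower). These were Ccnb2 (log2 fold change -1.51, SE 0.26, adjusted p = 0.00533, edgeR with the block), Cdca3 (-1.03), Ckap2 (-0.68) and Ect2 (-0.61). To day 5 the median was -0.83 (all genes 0.02), and 37 of 39 were negative. None was called by edgeR (0.713% of all genes lower), 12 had an unadjusted p under 0.05, DESeq2 called 1 (Ccnb2), and with the block 13 were called lower and none higher (33.3%; 7.34% of all genes lower). Ccnb2 had the smallest adjusted p (log2 fold change -2.04, SE 0.52, adjusted p = 0.053, edgeR; with the block log2 fold change -2.09, SE 0.30, adjusted p = 0.000641). The others were Ccnb1 (-1.17), Plk1 (-1.55), Mki67 (-1.15), Kif22 (-1.35), Cenpa (-1.21), Bub1b (-1.46), Ttk (-0.89), Cdc20 (-1.07), Cdca3 (-1.45), Birc5 (-0.80), Nusap1 (-1.45) and Ect2 (-0.72). Both changes share the day 0 sums and are not independent of each other.

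The summed level of all 39 members, a description with no test, averaged 3272.5 ± 301.2 CPM in collagen (SD, n = 4) and 2492.1 ± 728.9 in Matrigel (n = 4) on day 0. It was 3578.3 ± 299.0 and 3726.4 ± 1036.9 on day 3 and 3682.2 ± 1005.6 (n = 3) and 4930.2 ± 2241.6 (n = 2) on day 5. Without TMM scaling the collagen mean was 3462 CPM on day 0 and 3427 on day 3, so its direction turned with the scaling, and the Matrigel mean was 2569 and 3468. The spread between mice in Matrigel exceeded the difference between gels on days 3 and 5.

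The 4T1 cells, with 1 sum per pool and no replicate, had lower levels on day 3 than on day 0 for all 39 members (median ratio 0.328) and higher levels on day 5 than on day 3 for all 39 (median ratio 2.30). Ccnb2 was at 153, 56.8 and 131 CPM, Plk1 at 56.9, 19.9 and 34.9 CPM and Ube2c at 393, 218 and 299 CPM on days 0, 3 and 5, without TMM scaling. The day 3 pool, in which tumour cells in Matrigel had more of these genes than on day 0, was thus the pool in which the 4T1 cells had least. How the 4T1 cultures of the 3 pools differed was not analysed here.

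Other genes of the program were read from lists. The shares of all genes given with them count both directions, unlike those given for the members on day 0 and for their rise in Matrigel. Called higher alone, the share of all genes in Matrigel from day 0 to day 3 was 19.4%, and 26.7% with the block. For collagen over Matrigel on day 0 it was 4.15%, and 12.5% with the block. Of 48 other G2 and mitosis genes 12 rose and 2 fell in Matrigel from day 0 to day 3 (29.2% called, against 39.1% of all genes), and with the block 20 rose and 6 fell (54.2%, against 54.8%). Those with the smallest p were Pttg1, securin, which guards separase (log2 fold change 1.49, SE 0.26, adjusted p = 0.000158, edgeR), the microtubule regulator Psrc1 (1.71), citron kinase Cit (1.01), Pimreg (1.46), the spindle protein Dlgap5 (0.78) and the centromere protein Cenpw (1.02). Hmgb2 (-0.54), a chromatin protein, and the kinesin Kif18b (-0.71) fell. In collagen over the same days 1 rose (Psrc1, 1.18) and 2 fell (Hmgb2, -0.58, and Kif18b, -1.07), 6.2% against 19.6% of all genes, and with the block 2 rose and 7 fell. On day 0 Cit, Pttg1, Pimreg and Dlgap5 were higher in collagen than in Matrigel (log2 fold change 0.97, 1.03, 1.25 and 0.59) and none was lower (8.3% called, against 7.0% of all genes), and with the block 15 were higher (31.2%, against 24.3%). To day 5 the gel difference of Cit changed by -1.51 (adjusted p = 0.0345, edgeR).

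The next list holds genes whose products act in turning mitotic promoters on, among them MuvB genes that also serve in the repressing complex. Of its 14 genes 8 fell in Matrigel from day 0 to day 3 and none rose (57.1% called, against 39.1% of all genes). E2f3 (-0.90), the NF-Y subunits Nfyc (-0.88) and Nfya (-1.12), the MuvB genes Lin54 (-1.16), Rbbp4 (-0.59) and Lin9 (-0.95) had the 6 smallest p. The others were Lin52 (-0.80) and Mybl2, which encodes B-MYB, both named after their values were seen (Mybl2 went from 44.9 ± 8.66 CPM (SD, n = 4) to 26.9 ± 5.02 CPM (SD, n = 4); log2 fold change -0.74, SE 0.20, adjusted p = 0.00569, edgeR). In collagen 3 fell and none rose, E2f3 (-0.62), Nfya (-1.01) and Lin54 (-0.88), 21.4% against 19.6% of all genes, and with the block 7 fell (against 37.7% of all genes called). Foxm1, also named for its role, was called in neither gel and averaged 24.0 ± 6.35 CPM (SD, n = 4) and 24.4 ± 9.35 CPM (SD, n = 4) in Matrigel. On day 0 E2f3 was lower in collagen (-0.67), and with the block so was Nfyc (-0.47).

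Of 14 inhibitors and repressors 6 rose and 2 fell in Matrigel from day 0 to day 3 (57.1% called, against 39.1% of all genes), and 2 rose and 3 fell in collagen (35.7%, against 19.6%), where the block gave 5 and 3. Cdkn2a, which encodes p16 and ARF, went from 337 ± 64.5 CPM (SD, n = 4) to 1183 ± 302 CPM (SD, n = 4) (log2 fold change 1.81, SE 0.17, adjusted p = 2.46e-07, edgeR) and in collagen from 324 ± 47.9 CPM (SD, n = 4) to 1309 ± 65.2 CPM (SD, n = 4) (2.01). Gadd45a, a stress gene that restrains CDK1, fell in both gels (-2.15 and -1.54). In collagen the repressor genes E2f4 (-0.54) and Rbl1 (-0.62) fell too. The CDK inhibitor Cdkn2b rose in both (1.27 and 1.72), and the pocket protein genes Rbl2 (1.01) and Rb1 (1.04) were called in Matrigel. From day 3 to day 5 Cdkn1a, p21, fell in Matrigel (639 ± 300.3 CPM (SD, n = 4) to 164 ± 50.2 CPM (SD, n = 2); log2 fold change -1.96, SE 0.46, adjusted p = 0.0284, edgeR). Among 30 S phase genes 6 rose and 11 fell in Matrigel from day 0 to day 3 (56.7% called, against 39.1% of all genes) and 3 rose and 5 fell in collagen (26.7%, against 19.6%), where the block gave 6 and 9. Among those with the smallest p in Matrigel were thymidine kinase Tk1 (1.72), thymidylate synthase Tyms (0.78) and the E cyclin Ccne1 (0.88), which rose, and the replication licensing gene Cdt1 (-0.98) and Rpa2 (-0.75), a subunit of the protein that coats single-stranded DNA, which fell. On day 0 Tk1 was higher in collagen (1.06). Of 6 G1 genes the D cyclins Ccnd3 (0.98) and Ccnd1 (1.27) rose and Cdk2 fell (-0.46) in Matrigel.

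Outside the members, the 10 genes whose level per cell was most alike to the summed members, by the median over the 3 pools of Pearson's r across cells, were Racgap1 (0.74), Hmgb2 (0.74), Cks2 (0.69), Knl1 (0.69), Ube2s (0.69), Sgo2a (0.68), Smc2 (0.68), Pbk (0.67), Cks1b (0.67) and Ncapg (0.67). Of these 9 were on the list of other G2 and mitosis genes and Ube2s, an ubiquitin-conjugating enzyme of the anaphase-promoting complex, was on none. Cells of a pool share library, depth and mice, and the values are a description; for Racgap1, a partner of Kif23 at the central spindle, r was 0.54, 0.74 and 0.83 on days 0, 3 and 5, in the order of the cells' depth.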

How the data were processed

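Single-cell RNA libraries were made from 3 pools (MULTI-seq barcoding and 10x 3′ v2 chemistry, per the labels' protocols), 1 for each day. Raw UMI counts for every cell and gene are the values of the deposited matrix, and the authors' cell annotation gives each cell's pool, mouse, medium, total count and mitochondrial fraction. All 39668312 entries were whole, and the totals matched the annotation for all 7620 cells within 1 UMI. The highest mitochondrial share was 9.99%. Cell Ranger 3.0.2, Scanpy 1.4.4 and GRCm38/mm10 are named in the submitters' processing notes, without roles, and the filters on cells are not given in the sources used here. No column of per-sample values was set aside unused (0).

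Cells were scaled to 10000 counts, log-transformed and clustered (Scanpy 1.11.5, leidenalg 0.10.2; 2000 variable genes, 30 components, 15 neighbours, resolution 1.0; 24 clusters), only to leave out macrophage-, fibroblast- and T and NK cell-like clusters. No doublet caller was run. UMI counts of the other mouse-labelled cells were summed by mouse, gel and day where at least 20 cells were present. The 21 sums entered 1 edgeR 4.0.16 fit of 6 groups (R 4.3.3; TMM scaling, filterByExpr, quasi-likelihood F-test, common dispersion 0.0853), with Benjamini-Hochberg adjustment over 13184 genes in each of 9 comparisons. Shares of cells come from counts thinned without replacement to 2000 UMIs. Tumour mice are the replicates, and no pair of replicate sums agreed within sampling noise (28 pairs, chi-square divided by its degrees of freedom at least 7.5).

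Per the labels the same animals recur across the groups, which pairs the samples. The pairing is partial on day 5, where mice 1 to 3 entered in collagen and mice 2 and 3 in Matrigel. The deviations of same-mouse sums from their group means had correlations from 0.072 to 0.685 with a median of 0.304, against a median of -0.108 between different mice. For 21 of 21 sums the closest mouse by this measure was its own. The fit with the mouse as a block is therefore given beside the other. The edgeR steps were tested on simulated data. Alternatives were DESeq2 1.42.0, RLE scaling, no low-count filter, fits of the compared groups only, other sets of cells, 10 cells per sum and leaving out each mouse.

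The 39 members and all gene lists were chosen with earlier results of these data known, so no list carries a test. All members may be named. Of a related list, up to 6 called genes per comparison with the smallest p are named, and exceptions are marked. A result for 1 gene of the S phase list is not reported here. Promoter sequences are from RefSeq (GRCm38.p6).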

Additional observations from a re-analysis of the deposited data

Results flagged for a closer look

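Within groups of 4 mice, 164 sets of values (levels of single members, their sum and the share of cells with 4 or more) were examined for a mouse whose gap to the nearest other mouse took up most of the group's range (Dixon's criterion at the 95% level). Chance gives about 1 in 20 such flags, and 14 were found. Of these, 6 were mouse 3 in Matrigel on day 0, each time the highest: Ube2c stood at 239.8 CPM with the next mouse at 96.1, Prc1 at 124.2 (next 64.8), Tpx2 at 77.8 (39.4), Cdca3 at 74.7 (22.5), Nusap1 at 58.7 (20.7) and Aurka at 49.4 (18.8). The values come from 1 sum and are not independent of each other.

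In collagen on day 0 mouse 3 was also highest for Cdk1, at 269.5 CPM (next 158.0), and Cdca3, at 95.5 (43.5). Mouse 4 was highest there for Mki67, at 147.7 (113.8), and Ccnb2, at 73.5 (49.7). Mouse 1 was highest for Ect2, at 49.4 (42.8), and lowest for Hmmr, at 33.3 (39.2). On day 3 in collagen Nusap1 stood at 71.5 CPM in mouse 3 (46.5) and Kif11 at 29.4 in mouse 2 (25.3). What set these mice apart was not tested.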

How the results depend on the processing

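With the mouse as a block more members were called in 7 of the 9 comparisons. On day 0 it gave 15 members between gels instead of 2. From day 0 to day 3 it gave 25 instead of 15 in Matrigel and 2 instead of 1 in collagen, and from day 3 to day 5 it gave 6 instead of 1 in Matrigel and 1 instead of 0 in collagen. For the change of the gel difference it gave 4 instead of 0 to day 3 and 13 instead of 0 to day 5. For the gels on days 3 and 5 no alternative gave a call. On day 0 the count was 3 with DESeq2 and 1 with no low-count filter, with 10 cells per sum or with the compared groups only, and without 1 mouse it was 0 to 3. In Matrigel from day 0 to day 3 it was 9 with the compared groups only and 6 to 18 without 1 mouse. In collagen over the same days it was 6 with the compared groups only, 2 with DESeq2 or without the cells of the 4T1 cluster, 0 with no low-count filter, with all mouse-labelled cells or with 10 cells per sum, and 0 to 2 without 1 mouse. In Matrigel from day 3 to day 5 it was 0 under these 3, with the compared groups only and without the cells of the 4T1 cluster, and 0 to 1 without 1 mouse. For the change to day 5 it was 1 with DESeq2, with the compared groups only and without the clusters of few UMIs, and 0 to 1 without 1 mouse. The cause of these differences was not tested.

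Over the members called in a comparison, 151 values under these alternatives kept their side of the threshold and 20 did not, and of those without 1 mouse 45 did and 31 did not. The direction of none of these turned. Shares of cells differed between thinning settings, which also differ in the cells kept. Without thinning, collagen minus Matrigel on day 0 was -8.49 points instead of 5.78, and on day 3 it was 0.12 instead of -6.96. Day 3 minus day 0 in collagen was 17.93 without thinning and -5.46 at 5000 UMIs instead of 3.28 (-0.31 with 3 or more members), and in Matrigel it was 3.27 at 5000 UMIs instead of 16.02. Without mouse 3, day 5 minus day 3 was -1.86 instead of 1.98 in collagen and -5.80 instead of 5.34 in Matrigel. The days then held unlike sets of mice. In Matrigel only mouse 2 was left on day 5, against mice 1, 2 and 4 on day 3. Within mouse 2 the Matrigel share was higher on day 5 (34.01 and 43.14%). Without 1 mouse in turn the share differences between gels were 4.39 to 8.28 on day 0, -12.44 to -3.71 on day 3 and -20.17 to -1.88 on day 5, and day 3 minus day 0 was 0.62 to 7.12 in collagen and 12.23 to 21.34 in Matrigel. Both ends of the day 5 range set 1 Matrigel mouse against collagen mice that were not all the same animal. Limits include the 51 and 38 Matrigel cells of day 5 and median depths that rise with the day.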
